A study of Homo sapiens with 8 samples.

Results

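The genes described here encode 10 proteins of the contractile actin cytoskeleton and its stress fibres. They were taken by symbol for their known function, with earlier results of these data known, and are ACTA2, TAGLN, CNN1, CNN2, CNN3, MYL9, TPM1, TPM2, CALD1 and ACTN1. All 10 had a row among the 47591 genes of the expression table. In cells, actin filaments are bundled into stress fibres by crosslinking proteins, coated by tropomyosins, and pulled on by non-muscle myosin II, whose regulatory light chains switch the motor on when they are phosphorylated. Caldesmon and the calponins bind the same filaments and restrain myosin. Several of the genes, ACTA2, TAGLN and CNN1 above all, are best known as products of smooth muscle and of myofibroblasts, while CNN2, CNN3, TPM1, CALD1 and ACTN1 are expressed far more widely. Many of them are classical targets of serum response factor (SRF), which binds a DNA element called the CArG box and is driven by cofactors that sense how much actin is unpolymerised.

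The cells were SH-SY5Y, a human neuroblastoma (NB) line of neural crest origin. G2 cells carried a CRISPR/Cas9 edit with a guide against PRPF40B, a splicing factor. SCR cells received CRISPR/Cas9 with a scramble guide, and WT cells were not edited. There were 3 G2, 3 SCR and 2 WT libraries of polyA RNA, which the titles call biological replicates. The G2 line was raised from a colony by limiting dilution after puromycin selection, so an effect of the edit and a property of the clone cannot be told apart. By the study's methods the G2 and SCR cells were also kept in puromycin and the WT cells are not listed as such, so this difference in culture cannot be told apart from the line in G2/WT and SCR/WT. The comparisons of G2 with SCR (G2/SCR) and with WT (G2/WT) ask what differs in PRPF40B-silenced cells, and SCR with WT (SCR/WT) what differs between the controls.

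The values are normalized counts, in which the authors had scaled the libraries to one another. Reads recovered from them gave about 19934798 to 27026916 fragments per library. PRPF40B itself had a mean normalized count of 866 ± 44.5 (SD, n = 3) in G2, 1676 ± 8.79 (n = 3) in SCR and 1820 ± 215 (n = 2) in WT. The neuroblastoma regulator HAND2 (32255 to 54118) was present in every library, whereas TH, the first enzyme of catecholamine synthesis, lay between 0 and 26.5. A gene was called where limma gave a fold change of at least 1.5 with an unadjusted p of at most 0.05, and adjusted p-values are Benjamini-Hochberg values over the 18947 genes whose mean over the 8 libraries reached 10.

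The contractile genes were expressed more strongly in G2 cells. Of the 9 that could be tested, all but MYL9, 7 rose in G2 against SCR and none fell. The largest change was in TPM1, at 4.71 times the SCR mean, followed by CNN2 at 4.01 times and TPM2 at 3.80 times. The share of all tested genes called higher in that comparison was 15.1%, and the share called lower 11.8%. Against WT, 8 of the 9 rose and none fell, where 17.7% of all genes were called higher and 12.2% lower. The 8 include CNN1, whose WT mean of 8.19 was under the limit of 10, and 7 remained with a mean of at least 100. Between the controls only ACTA2 was called, and it was higher in SCR, where 10.7% of all genes were called higher and 5.63% lower. The median log2 fold change of the 9 genes was 1.27 in G2/SCR, 1.91 in G2/WT and 0.17 in SCR/WT, and that of all tested genes was -0.01, 0.00 and 0.01. The 9 genes together took 0.128% to 0.129% of all normalized counts in the G2 libraries, 0.0497% to 0.0508% in SCR and 0.0398% to 0.0454% in WT. Both comparisons with G2 use the same G2 libraries, so they are not independent of each other.

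**Figure D1:**
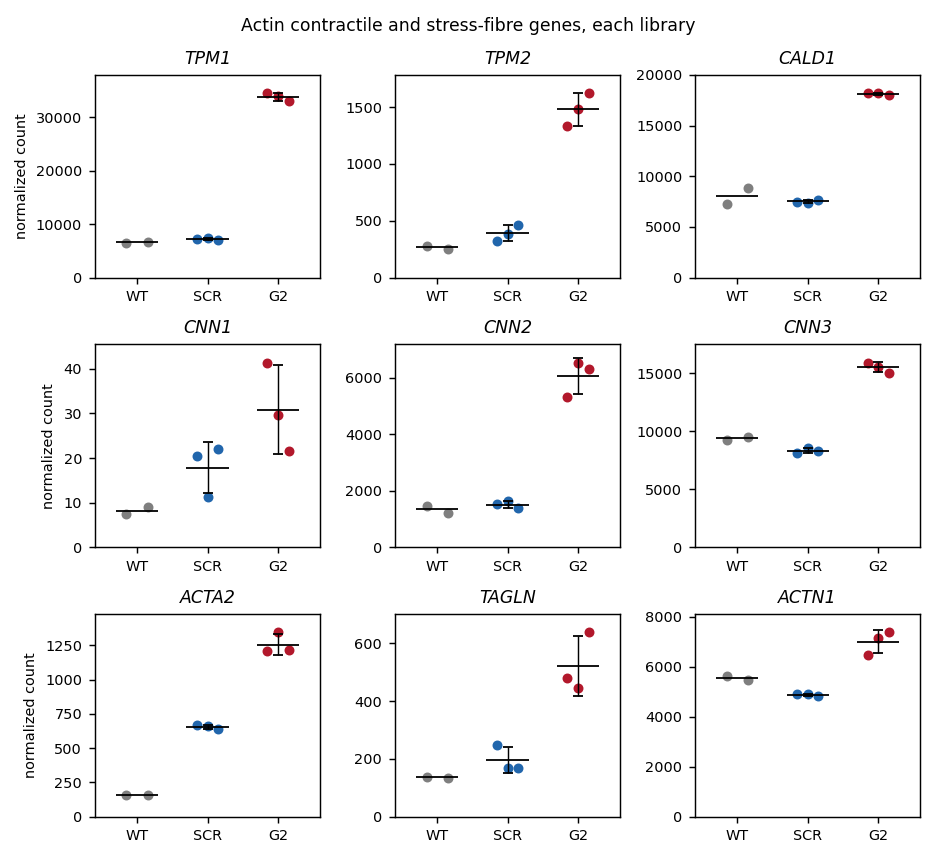
Normalized count (y axis, linear, from 0) of 9 contractile genes in each library, by line (x axis). Points are libraries, horizontal bars are means, and whiskers are SD where a line has 3 libraries. The G2 points lie above all control points in each panel but that of CNN1.

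Tropomyosins are coiled-coil proteins that lie along the actin filament and decide which motors and severing proteins reach it. TPM1 (GSHG0014043, hg38 chromosome 15, 63042684 to 63071915, plus strand) had normalized counts of 34561, 33995 and 33080 in the G2 libraries. The SCR libraries had 7228, 7368 and 6976, and the WT libraries 6545 and 6655. The lowest G2 library thus lay far above the highest control, and the lines were tightly grouped. On the log2 scale G2 exceeded SCR by 2.24 ± 0.05 (SE) (limma, adjusted p = 1.4e-11) and WT by 2.36 ± 0.05 (limma, adjusted p = 1.3e-11). SCR exceeded WT by 0.12, under the 1.5-fold limit.

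TPM2 (GSHG0044285, chromosome 9, 35681993 to 35692472, minus strand), the beta-tropomyosin of muscle and other contractile cells, was less abundant than TPM1 per exon length. Its G2 libraries had 1332, 1484 and 1624 normalized counts, its SCR libraries 324, 381 and 463, and its WT libraries 278 and 255. The 3 lines did not overlap, with WT lowest and G2 highest. Relative to SCR, G2 was higher by 1.93 ± 0.13 (log2) (limma, adjusted p = 1.2e-07), and relative to WT by 2.46 ± 0.14 (limma, adjusted p = 4.0e-08). SCR exceeded WT by 0.53, with a 95% interval of 0.22 to 0.84 that reaches past the 1.5-fold limit on a log2 scale (0.585), and TPM2 was not called there. It was called when SCR replicate 1 (0.66) or WT replicate 1 (0.59) was left out.

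These genes made up a larger part of all tropomyosin RNA in G2 cells. When counts were divided by the length of each gene's merged exons in GENCODE release 44, TPM1 was 15.8% to 16.1% of the sum of TPM1, TPM2, TPM3 and TPM4 in the G2 libraries. It was 5.65% to 5.88% in SCR and 4.21% to 4.30% in WT. TPM2 was 2.88% to 3.59% in G2, 1.21% to 1.73% in SCR and 0.761% to 0.826% in WT. The mean share of TPM3 was 39.5% in G2, 58.1% in SCR and 56.4% in WT. TPM4, the other widely expressed tropomyosin, was higher in G2/SCR by 1.03 on the log2 scale, while TPM3 differed by 0.21 and was not called. The merged exons hold more sequence than any single transcript, and TPM1 has many isoforms, so the shares are relative and not molar.

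**Figure D2:**
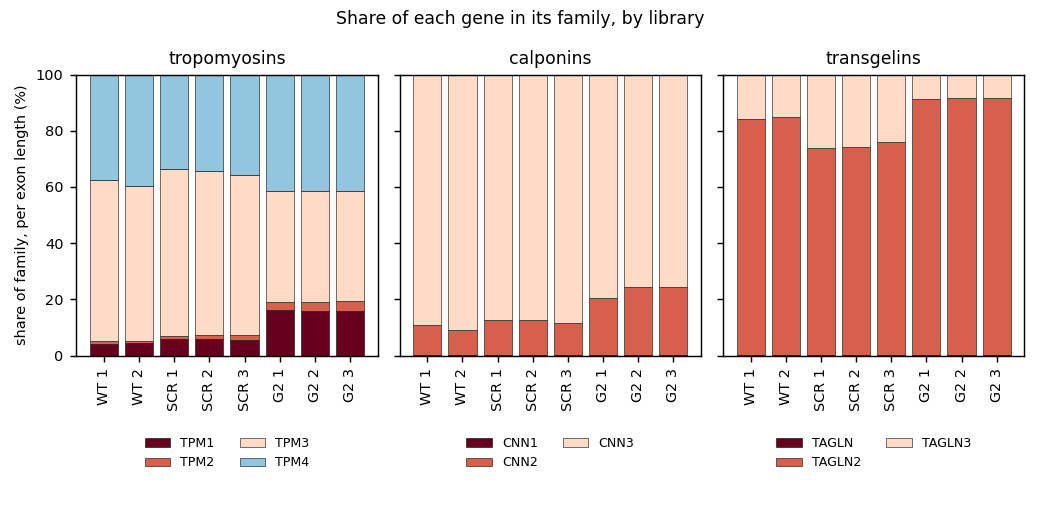
Share (y axis, percent of the family, counts per merged exon length) of each gene among 4 tropomyosins, 3 calponins and 3 transgelins in each library (x axis). TPM1 and TPM2 widen from at most 7.39% of the tropomyosins in any control library to at least 19.0% in each G2 library, and CNN2 widens at the cost of CNN3.

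CALD1 encodes caldesmon, which bridges actin and myosin and inhibits the motor's ATPase. CALD1 (GSHG0039972, chromosome 7, 134779420 to 134970729, plus strand) had 18167, 18212 and 18017 normalized counts in G2. The SCR libraries had 7496, 7394 and 7676, and the WT libraries 7262 and 8883. Those of G2 differed from one another by less than any other group did for this gene, and the WT libraries straddled the SCR values. G2 exceeded SCR by 1.27 ± 0.07 on the log2 scale (limma, adjusted p = 1.6e-08) and WT by 1.17 ± 0.07 (limma, adjusted p = 9.5e-08). The difference in SCR/WT was -0.09, not called.

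The 3 calponins, actin-binding proteins that stabilise filaments, behaved differently from one another. CNN2 (GSHG0020971, chromosome 19, 1026584 to 1046151, plus strand), the form of many non-muscle cells, had 5325, 6545 and 6320 normalized counts in G2. It had 1520, 1624 and 1394 in SCR, and 1468 and 1230 in WT. The controls overlapped each other and lay far under G2. Relative to SCR, G2 was higher by 2.00 ± 0.09 (log2) (limma, adjusted p = 6.1e-09), and relative to WT by 2.17 ± 0.11 (limma, adjusted p = 9.0e-09). The difference in SCR/WT was 0.17, not called. GENCODE lists 11 pseudogenes of CNN2, and how reads that match several copies were counted is not given in the sources used here, so the level of CNN2 is less certain than that of the other genes.

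CNN3 (GSHG0002682, chromosome 1, 94896957 to 94927143, minus strand), the acidic calponin found in brain among other tissues, was the most abundant calponin. Per kilobase of merged exon it had a mean of 5576 normalized counts in G2, 2994 in SCR and 3383 in WT, against 1666, 415 and 371 for CNN2. Its G2 libraries had 15926, 15562 and 15065 normalized counts in full, the SCR libraries 8160, 8555 and 8280, and the WT libraries 9281 and 9547. Here SCR was lowest, WT slightly higher and G2 clearly higher than both. G2 exceeded SCR by 0.90 ± 0.05 on the log2 scale (limma, adjusted p = 2.0e-08) and WT by 0.72 ± 0.05 (limma, adjusted p = 4.2e-07). The difference in SCR/WT was -0.18, not called.

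Because CNN2 moved further than CNN3, the balance between them differed. Per exon length, CNN2 was 20.3% to 24.3% of the calponin sum in G2, 11.4% to 12.7% in SCR and 8.96% to 10.8% in WT. The shares of ACTA2 among actins, TAGLN among transgelins, CNN2 among calponins, TPM1 and TPM2 among tropomyosins and ACTN1 among alpha-actinins were each compared between the 3 G2 and the 5 control libraries with a two-sided exact permutation test over 56 groupings. Each exact permutation test gave p = 0.0357, the smallest that 3 against 5 libraries can give, with no adjustment for the 6 shares. G2 lay outside the control range in every share, which alone fixes this p-value, so it adds nothing to the ranges. CNN1 and CNN3 were left out of these tests. The groupings treat SCR and WT as 1 group, although their shares differed, with means for ACTA2 of 0.0907% in SCR and 0.0172% in WT. In 5 of the 6 shares G2 lay above every control, and in that of ACTN1 below every control.

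CNN1 (GSHG0021180, chromosome 19, 11538764 to 11550324, plus strand), the calponin of differentiated smooth muscle, was barely expressed. Its normalized counts were 41.4, 29.6 and 21.5 in G2, 20.4, 11.3 and 21.9 in SCR, and 7.45 and 8.94 in WT. The lowest G2 library lay under the highest SCR library. Its WT mean was under the limit of 10, which the gene passed through its G2 and SCR libraries. These levels rest on about 30 fragments over the 3 G2 libraries, 20 over SCR and 5 over WT. In G2/SCR the ratio was 1.74, with a counting interval of 0.955 to 3.23 (95%, exact), and limma's log2 fold change of 0.76 ± 0.44 was not called (adjusted p = 0.17). In G2/WT the ratio was 3.74 (1.44 to 12.4) and the gene was called with a log2 fold change of 1.75 ± 0.49 (limma, adjusted p = 0.0096). The intervals cover counting error only.

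ACTA2 encodes smooth-muscle alpha-actin, an isoform that raises the force of stress fibres in myofibroblasts. ACTA2 (GSHG0005273, chromosome 10, 88935074 to 88991397, minus strand) had 1206, 1346 and 1212 normalized counts in G2. It had 667, 658 and 641 in SCR, and 155 and 159 in WT. The lines formed 3 separate steps, of which that between the controls was the larger in fold terms. On the log2 scale G2 lay 0.93 ± 0.08 above SCR (limma, adjusted p = 1.6e-06), SCR 2.05 ± 0.09 above WT (limma, adjusted p = 4.3e-08) and G2 2.99 ± 0.09 above WT (limma, adjusted p = 1.7e-10). With 4.17 times the WT mean in SCR cells, ACTA2 does not meet the definition of a gene specific to G2 (called the same way against both controls and not between them).

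ACTA2 stayed a trace isoform in all lines. Per exon length it made up 0.109% to 0.121% of the 6 actins in G2, 0.0873% to 0.0937% in SCR and 0.0167% to 0.0178% in WT. Nearly all actin RNA came from the cytoplasmic genes ACTB and ACTG1, with ACTB at 51.1% to 51.5% in G2 and 50.8% to 51.1% in SCR. The span of ACTA2 overlaps those of FAS, STAMBPL1 and ACTA2-AS1. FAS, a death receptor gene, had means of 137 in G2, 88.2 in SCR and 27.4 in WT, the same order as ACTA2, and STAMBPL1 had 942, 539 and 608. ACTA2-AS1 did not exceed 13.1 in any library. Since the strand setting of the counting is not given in the sources used here, reads shared between these genes cannot be assigned.

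TAGLN encodes transgelin (SM22), a calponin-related protein that gels actin and marks early smooth-muscle differentiation. TAGLN (GSHG0006775, chromosome 11, 117199294 to 117210292, plus strand) had 479, 443 and 638 normalized counts in G2, 247, 168 and 170 in SCR, and 137 and 135 in WT. G2 replicate 3 and SCR replicate 1 stood above the others of their line, and the lines still did not overlap. On the log2 scale G2 lay 1.42 ± 0.17 above SCR (limma, adjusted p = 2.9e-05) and 1.91 ± 0.19 above WT (limma, adjusted p = 5.7e-06), and SCR lay 0.50 ± 0.19 above WT, which was not called. TAGLN was called in SCR/WT when SCR replicate 2 was left out (0.59). Its span overlaps that of PCSK7, which had means of 5190, 5452 and 5749 in G2, SCR and WT.

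Its relatives TAGLN2 and TAGLN3 were far more abundant per exon length. TAGLN2, the transgelin of most cells, rose in G2/SCR by 0.89 on the log2 scale but differed from WT by only 0.19, not called. TAGLN3, a neuronal transgelin, fell by 1.00 in G2/SCR and by 0.80 in G2/WT. Per exon length TAGLN was 0.210% to 0.315% of the 3 transgelins in G2 and 0.0649% to 0.176% in the controls, while TAGLN3 had mean shares of 8.40% in G2, 25.4% in SCR and 15.4% in WT.

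ACTN1 encodes alpha-actinin 1, which ties filaments together in dense bodies and at focal adhesions. ACTN1 (GSHG0012979, chromosome 14, 68870498 to 68979302, minus strand) had 6483, 7155 and 7384 normalized counts in G2, 4900, 4897 and 4837 in SCR, and 5613 and 5482 in WT. Every G2 library lay above every control library, as did those of 8 of the 9 genes and of 22.8% of all tested genes. The difference was small, 0.52 ± 0.06 on the log2 scale against SCR (limma, adjusted p = 1.2e-05) and 0.33 ± 0.06 against WT (limma, adjusted p = 0.00094), and both were under the 1.5-fold limit. The paralogue ACTN4 rose by 0.72 in G2/SCR, and the muscle gene ACTN2, at a mean of 52.3 in G2 and 130 in SCR, fell by 1.32.

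MYL9 (GSHG0026782, chromosome 20, 36541516 to 36551447, plus strand), the regulatory myosin light chain of smooth muscle, was listed at 0 in all 8 libraries. If its reads could be assigned, a count of 0 would allow up to 6.80 to 11.2 normalized counts, depending on the library. Of 80 ribosomal protein genes only RPL10L was also at 0 throughout. The whole span of MYL9 lies within that of DLGAP4-AS1, which reached 15.9 at most, and without the strand setting it is not known whether reads in the overlap were counted for either gene. The related light chains were abundant. MYL12A rose to a mean of 38140 in G2 from 16848 in SCR, a log2 fold change of 1.18 ± 0.06 (limma, adjusted p = 8.7e-09), and MYL12B was at 39152 and 26958, a difference of 0.54 that was not called.

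**Figure D3:**
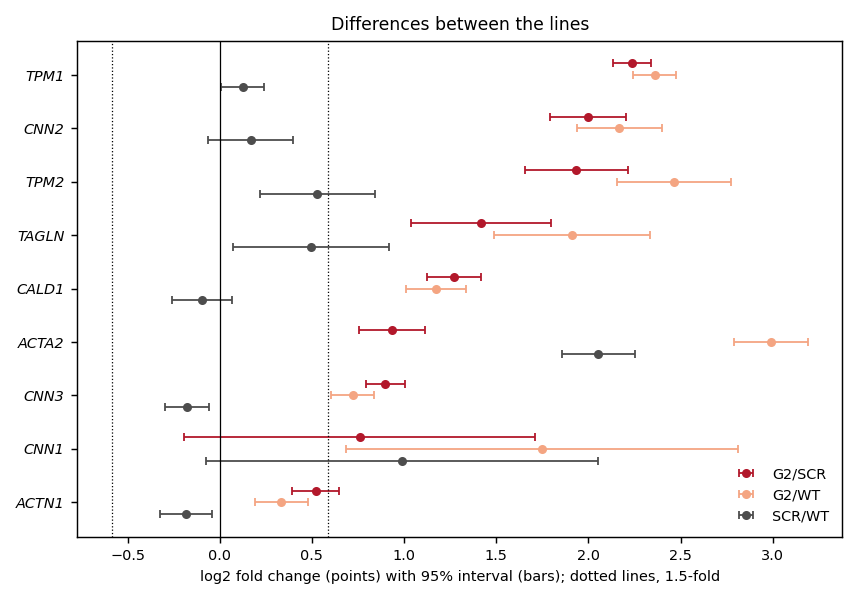
Log2 fold change (x axis) of 9 contractile genes (y axis) in G2/SCR, G2/WT and SCR/WT, with 95% intervals from limma. Dotted lines mark a 1.5-fold change. Among the SCR/WT points that of ACTA2 is at 2.05, those of CNN1, TPM2 and TAGLN are at 0.99, 0.53 and 0.50 with intervals that reach past the dotted line, and the other 5 are between -0.19 and 0.17.

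TAGLN, CNN2, CNN3, TPM1, TPM2 and CALD1 thus met the definition of genes specific to G2, which 8.13% of all tested genes met in the higher direction. The order of their log2 fold changes in G2/SCR was TPM1, CNN2, TPM2, TAGLN, CALD1 and CNN3. The 95% interval of TPM1 (2.13 to 2.34) overlapped those of CNN2 (1.79 to 2.21) and TPM2 (1.66 to 2.21), that of TAGLN (1.04 to 1.80) overlapped those of CNN2, TPM2 and CALD1 (1.12 to 1.42), and that of CNN3 (0.79 to 1.00) lay under that of CALD1. Scaling all libraries to the same total moved the median of all genes to -0.10 in G2/SCR, 0.19 in G2/WT and 0.28 in SCR/WT. Every call in G2/SCR and G2/WT stayed, while TAGLN, CNN1 and TPM2 were then called in SCR/WT. The share of higher calls over all genes went from 56.2% to 47.5% in G2/SCR, from 59.3% to 75.7% in G2/WT and from 65.6% to 90.6% in SCR/WT.

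The genes are spread over 9 chromosomes, with CNN1 and CNN2 both on chromosome 19. Over the 10 genes on either side of each whose mean reached 100, the median log2 fold change in G2/SCR lay between -0.17 around CNN2 and 0.32 around CALD1. None of the 20 neighbours exceeded TPM1, TPM2, TAGLN or CNN1, 1 exceeded each of CNN2, CNN3, CALD1 and ACTN1, and 2 exceeded ACTA2. One unnamed table entry inside TPM1 (GSHG0014044) had means of 376 in G2, 111 in SCR and 101 in WT. Another, inside CALD1 (GSHG0039973), had 136, 49.7 and 103, where CALD1 itself had 18132, 7522 and 8073.

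The promoters were searched for the CArG box, a run of A and T letters between CC and GG, since the genes moved together and several are textbook targets of SRF. RefSeq promoter windows were at hand for 8 of the genes, with 17 start sites in all, and not for TAGLN and MYL9. In the 250 bases before the start, 2 of the 17 held a perfect box, against 1.16% of all 35116 windows. One was that of CNN2, 89 bases before its start, and the other belonged to 1 of the 4 starts of ACTN1, at 171 bases. With exactly 1 of the middle letters changed to C or G, 2 further windows matched, of ACTA2 and CALD1, against 5.96% of all windows. The stretches around the boxes of CNN2, ACTN1 and ACTA2 are shown 5′ to 3′ on the gene's strand (GRCh38.p14), with the box in capitals.
CNN2, chr19:1026474-1026573, plus strand: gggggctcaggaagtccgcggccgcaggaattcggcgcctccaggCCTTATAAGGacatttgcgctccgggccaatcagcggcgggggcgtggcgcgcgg
ACTN1, chr14:68977683-68977782, minus strand: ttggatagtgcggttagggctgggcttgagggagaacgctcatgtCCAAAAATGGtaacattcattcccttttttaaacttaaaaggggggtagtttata
ACTA2, chr10:88952840-88952939, minus strand, with 1 changed letter: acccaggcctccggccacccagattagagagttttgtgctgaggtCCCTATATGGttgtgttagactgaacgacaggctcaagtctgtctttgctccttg

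None of the 3 stretches overlaps an annotated exon in GENCODE, and those of ACTN1 and ACTA2 lie inside the span of the gene, before one of its later starts. ACTA2 holds another box with 1 change 71 bases before the same start. CNN2, with a perfect box, was about 4 times higher in G2 than in SCR, and ACTN1, also with one, was not called. TPM1, which changed most in G2/SCR, had no perfect or once-changed box in its window, and only 1 of its starts is in the table. The motif CATTCC, on either strand, to which TEAD factors bind, was in 5 of the 17 windows, of ACTA2, ACTN1, CALD1 and CNN3, against 11.9% of all windows. A match is only a run of letters, and nothing here measured binding.

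The other genes of actin contractility were read from 7 lists of 108 genes, of which 100 were tested. In G2/SCR 43 were called higher and 5 lower, beside the 15.1% and 11.8% of all genes. In G2/WT 35 were higher and 7 lower, beside 17.7% and 12.2% of all genes. In SCR/WT 7 were higher and 9 lower, beside 10.7% and 5.63%. Their median log2 fold changes were 0.46, 0.33 and -0.04.

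Of 37 tested genes for crosslinkers and focal adhesions, 21 were higher and 2 lower in G2/SCR, with a median of 0.80. Of all tested genes, 15.1% were called higher and 11.8% lower there. ZYX, a LIM protein recruited to strained fibres, rose from a mean of 4301 ± 152 in SCR (SD, n = 3) to 16944 ± 969 in G2, with 4508 in WT. VCL, vinculin of focal adhesions, rose from 2597 ± 57.1 to 8240 ± 125, and CSRP1, a LIM protein that binds alpha-actinin and zyxin, from 7573 ± 175 to 23095 ± 1222. In G2/WT 22 of the 37 were higher and 5 lower, beside 17.7% and 12.2% of all tested genes, so the lower count is near the share of all genes.

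Of 19 tested genes of myosin II and its control, 6 were higher and none lower in G2/SCR. MYH9, the heavy chain of non-muscle myosin IIA, rose by 1.28 ± 0.05 on the log2 scale and by 1.27 in G2/WT. RHOC, a GTPase that activates the pathway, rose by 1.66 ± 0.07 and by 1.73. The 4 of 19 genes called higher in G2/WT include both, a count near the 17.7% of all tested genes called higher there. The smooth-muscle heavy chain MYH11 was between 0 and 11.3 in all libraries. Of 24 genes of actin turnover 9 were higher and none lower in G2/SCR, and 6 were higher in G2/WT. The shares of all tested genes called higher were 15.1% and 17.7%. TMSB4X, which holds actin monomers, rose from 32489 ± 697 in SCR to 115770 ± 3335 in G2, with 40421 in WT. SSH3, a cofilin phosphatase, rose from 933 ± 44.2 to 2272 ± 192, with 906 in WT. CAP2, which recycles actin monomers, rose from 702 ± 24.7 to 1552 ± 51.0. Its WT mean was 402, and CAP2 was also called higher in SCR/WT, by 0.81 (log2).

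Of 4 tested actin isoforms outside ACTA2, 2 were called higher in G2/SCR and none in G2/WT, beside 15.1% and 17.7% of all tested genes. The 2 were ACTB and ACTG2, of which ACTG2 was at low levels, with means of 13.0 in G2, 2.75 in SCR and 33.0 in WT. ACTB was higher by 0.59 ± 0.05 in G2/SCR, at the 1.5-fold limit, and by 0.18 in G2/WT. Of the 7 paralogues, 3 were higher in G2/SCR and none in G2/WT, and TAGLN3 and ACTN2 were lower in both. The shares of all tested genes called lower were 11.8% in G2/SCR and 12.2% in G2/WT.

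**Figure D4:**
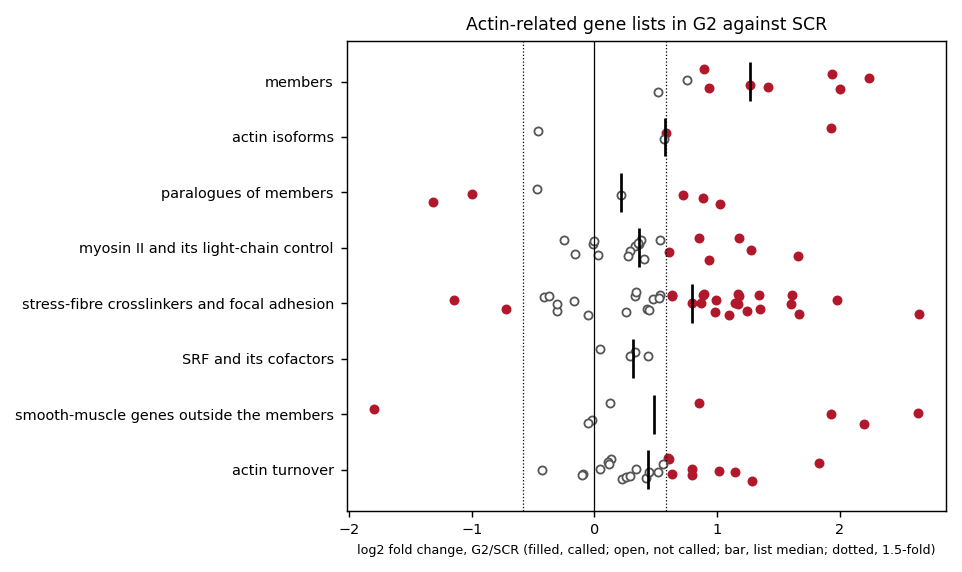
Log2 fold change in G2/SCR (x axis) of the 9 contractile genes and of the tested genes of 7 lists (rows). Filled points are called, open points are not, and thick bars are list medians, which run from 0.21 for the paralogues to 0.80 for crosslinkers and focal adhesion, with 1.27 for the 9 genes.

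None of the 4 tested genes for SRF and its cofactors was called in G2/SCR. Their activity was not measured, and whether they act on the contractile genes in these cells was not tested. SRF had means of 1909 ± 16.0 in G2, 1411 ± 144 in SCR and 1116 in WT, 0.44 above SCR on the log2 scale, under 1.5-fold, and 0.78 above WT, which was called. The SRF cofactors MRTFA and MRTFB differed by 0.33 and 0.29 in G2/SCR. MYOCD, the cofactor that drives the smooth-muscle programme, was listed at 0 in all libraries. Among 8 tested smooth-muscle genes outside the set, 4 were higher and 1 lower in G2/SCR, beside 15.1% and 11.8% of all tested genes. In G2/WT 3 were higher, MYLK, DES and PLN, beside 17.7% of all tested genes. MYLK, the kinase of the light chains, had means of 3633 ± 106 in G2, 2019 ± 175 in SCR and 1019 in WT. It was also called higher in SCR/WT, by 0.98 (log2). The others called higher in G2/SCR were at low levels. DES had means of 21.1 in G2, 3.39 in SCR and 3.72 in WT and passed the limit of 10 through G2 alone, so its call adds no support. PLN had means of 45.2, 12.4 and 3.97 and passed the limit of 10 only with its G2 libraries counted, so its call adds no support either. ACTG2 had 13.0, 2.75 and 33.0, highest in WT.

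Several markers of other cell types also differed between the lines. The summed normalized count of 8 fibroblast markers was 126506 to 128667 in G2, 25698 to 26142 in SCR and 22416 to 24455 in WT, and 7 of the 8 were called higher in both comparisons with G2. Most of the control sums was THY1, with means of 17501 in SCR and 20028 in WT. COL3A1, DCN, LUM and FAP were also called higher in SCR/WT, by 3.72, 2.65, 1.80 and 3.24 (log2). The other fibroblast markers were not called there. That of 9 pericyte and vascular smooth-muscle markers was 777811 to 818747 in G2, 446723 to 492756 in SCR and 469661 to 491181 in WT. Nearly all of it was RGS5. In each of the comparisons with G2, 4 of the 9 were called higher and 2 lower, and MYH11 was not tested. The 4 include DES, whose call adds no support, since it passed the limit on the mean through G2 alone. Of all tested genes, 15.1% were called higher and 11.8% lower in G2/SCR, and 17.7% and 12.2% in G2/WT. Without RGS5 the sums were 10126 to 11587, 7711 to 8235 and 8557 to 8649, and 3 of the 8 did not reach 50 in any library, among them MYH11 and DES. That of 12 sympathoadrenal markers was 280200 to 284232 in G2, 394174 to 403810 in SCR and 362923 to 374361 in WT, and 9 of the 12 were called lower in G2/SCR. The endothelial, striated muscle, epithelial and haematopoietic sums were at most 150.2 in every library, and the Schwann cell sum was 170 to 267 in G2 and 387 to 595 in the controls, with SOX10 at 0. The part of these shifts in the contractile genes was not tested. In bulk RNA a change in the number of cells of a type and a change in RNA per cell cannot be told apart.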

How the data were processed

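PolyA RNA of 8 SH-SY5Y libraries was sequenced in pairs after a stranded Illumina preparation. According to the methods and the submitters' processing notes, reads were aligned with STAR to hg38, counted per gene with featureCounts (Subread 1.5.0) on FAST DB annotation and normalized with DESeq2. The deposited table holds these normalized counts, a signal divided by a size factor for each library, rather than raw counts, and its comparison columns (fold changes and p-values) were not used. Values were whole multiples of 1 step per library (100% within 0.1 of a whole number), so reads were recovered. Most small values were multiples of 3, and fragments were taken as recovered reads divided by 3. The step of WT replicate 2 lies near 1 and could not be checked.

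Here, log2(normalized count + 1) of 18947 genes with a mean of at least 10 was fitted with limma 3.58.1 (eBayes with trend, 1 mean per line over all 8 libraries) in R 4.3.3, and a fold change understates that of low genes. DESeq2 1.42.0 and edgeR 4.0.16 on recovered reads were alternatives for G2/SCR. In simulated G2/SCR data over 18947 genes, 97.6% of genes raised 2-fold, 90% of those lowered 2-fold and 46.0% of those raised 1.5-fold were called. Of unchanged genes 0.948% were called. The limma p-values measure the spread between libraries of the same line, pooled over the 3 lines and moderated across genes. They do not reflect the spread of the compared lines alone. Genes were placed with GENCODE 44. The genes and lists were chosen with earlier results of these data known. Named list genes were up to 3 per list, those called in G2/SCR with the largest change and a mean of at least 100; other genes were named as paralogues, overlapping genes or markers, after their values were seen.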

Additional observations from a re-analysis of the deposited data

How the results depend on the processing

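In G2/SCR the 7 calls among the contractile genes were made again under each alternative, DESeq2 and edgeR on recovered reads included, except at a 2-fold limit, where 5 remained and ACTA2 (0.93) and CNN3 (0.90) were lost. In G2/WT 8 became 7 at that limit, without CNN3 (0.72), and 7 with a mean of at least 100, where CNN1 was not tested. In SCR/WT the 1 call became 4 when all libraries were scaled to the same total, 2 without the trend, and 1 to 3 when each library in turn was left out, with TPM2 added without SCR replicate 1 or WT replicate 1, and TAGLN and CNN1 without SCR replicate 2. The genes specific to G2 were then 4 at the same total, without TAGLN and TPM2, and 5 to 6 over the libraries left out. At the same total CNN3 (0.10), CALD1 (0.18) and ACTN1 (0.09) turned positive in SCR/WT, uncalled in either scaling, and CALD1 also did so without WT replicate 2 (0.05). Over all genes, 5088, 5657 and 3097 calls in G2/SCR, G2/WT and SCR/WT became 3088, 3633 and 1723 with a mean of at least 100 and 2951, 3176 and 1491 at a 2-fold limit, with fewer genes tested or a stricter limit by construction. By the replicate numbers of the titles no pairing was seen. Same-numbered libraries correlated between -0.17 and 0.15 in their deviations from the line means, and others between -0.20 and 0.17. The library names carry other numbers, and a pairing by these was not tested. With a replicate block the calls were 7, 8 and 1 for the contractile genes and 5059, 5644 and 3057 for all genes. Depth limits CNN1, and 2 WT libraries limit what SCR/WT can show.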
